A study of Mus musculus and Homo sapiens with 28 samples.

Results

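Cd28 encodes the costimulatory receptor CD28, and its row is 1 of 46078 in the gene table of 24 mouse tumour libraries. The gene was selected on its rlog values in these libraries, which were known beforehand, and its pattern across libraries was set beside those of the T cell genes Cd3e and Cd2 and of the growth factor gene Igf2. Its own values, and those of these 3 genes, are therefore given as a description, without a test. The question behind the choice was whether T cells or tumour cells carry the Cd28 transcript in these tumours.

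CD28 sits on the surface of T cells and binds CD80 and CD86 on antigen-presenting cells. Its signal adds to that of the T cell receptor and favours proliferation, survival and cytokine production. CTLA4 competes for the same ligands and limits the response. ICOS is a related costimulatory receptor, and PD-1 (gene Pdcd1) and BTLA are inhibitory relatives. Cd3e encodes a chain of the T cell receptor complex, Cd2 an adhesion receptor of T and NK cells, and Igf2 a fetal growth factor that is imprinted and often expressed again in tumours.

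RNA was sequenced from tumours grown from Renca, a mouse renal adenocarcinoma line, injected in Matrigel under the skin of the back. Treatment began when tumours reached about 100 mm3, and consisted of VE822, an inhibitor of the kinase ATR, at 60 mg/kg by gavage on 5 consecutive days per week. The labels give 7 libraries of WT untreated tumours, 6 of WT tumours under VE822, 6 of SETD2 KD untreated tumours and 5 of SETD2 KD tumours under VE822. SETD2 is a histone H3 lysine methyltransferase, and KD is taken from the labels. The labels and protocols leave out mouse strain and age, the way SETD2 was depleted and whether the cells are 1 clone. The labels do not say that each library is a separate animal, so every p-value measures the spread between these libraries. The series also holds 4 libraries of 786-O, a human renal carcinoma line, left untreated or given a CHK1 inhibitor at 25 nM for 48 h.

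Values are the authors' regularised logarithms (rlog, a log2 scale that pulls weakly counted genes toward their mean), so differences understate the change of weakly expressed genes. Levels are compared within a gene and not between genes. A gene is said to rise or fall where limma's adjusted p was below 0.05 over the 15916 rows tested, which are those with a mean rlog of at least 3. Read depth is unknown, since rlog values hold no counts, and the median rlog of a library lay between 9.13 and 9.21.

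The Setd2 transcript did not differ between the genotype labels in untreated tumours. Its mean rlog was 10.83 ± 0.07 (SD, n = 7) in libraries labelled WT and 10.81 ± 0.07 (SD, n = 6) in those labelled SETD2 KD, and no gene passed the test between these groups (0 of 15916 with limma, 512 at an unadjusted p under 0.05). Under VE822 Setd2 was lower with both labels, at 10.03 ± 0.29 (SD, n = 6) and 9.72 ± 0.21 (SD, n = 5). Between the labels under VE822, 2 genes of the 15916 passed (0.0126%), 1 in each direction (0.00628%), and 2031 had an unadjusted p under 0.05; these were Mfsd12 and Fmod, named here after their values were seen. For the interaction of treatment and label no gene passed, with 1452 at an unadjusted p under 0.05. The genotype names below are labels only. The labels call the tissue kidney although the tumours grew under the skin, and the renal genes Pax8 and Cdh16 were present in every library, with mean rlog of 11.25 and 11.86. Skeletal muscle genes stood out in 4 libraries: the mean rlog of 9 muscle genes was 6.71 in WT untreated replicate 4 and 9.42, 7.27 and 7.99 in WT VE822 replicates 1, 2 and 4, against 4.39 to 5.55 in all others. SETD2 KD VE822 replicate 4 also stood apart, as described below.

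Cd28 (ENSMUSG00000026012) lies on the plus strand of chromosome 1, at 60716800 to 60773359 in GRCm38. It was low in every untreated tumour and higher in every tumour under VE822. In WT untreated tumours the rlog ran from 4.68 to 5.02, with a median of 4.86. In SETD2 KD untreated tumours it ran from 4.73 to 5.16, with a median of 4.90. The untreated groups overlap almost entirely.

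Under VE822, WT replicates 1 to 6 had Cd28 rlog values of 6.03, 6.58, 7.57, 6.96, 6.89 and 6.96. SETD2 KD replicates 1 to 5 had 7.58, 7.69, 7.95, 5.44 and 7.97. All 11 libraries under VE822 (5.44 to 7.97) were above all 13 untreated ones (4.68 to 5.16), and SETD2 KD replicate 4 was the nearest to them. The share of tested rows in which every library under VE822 was above every untreated library of the same label was 6.25% (WT) and 5.3% (SETD2 KD).

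VE822 tumours exceeded untreated ones by 1.98 ± 0.28 (SE, log2) with the WT label, and 28 from the top is the place of this difference among 15916 rows. The difference was 2.40 ± 0.31 (SE, log2) with the SETD2 KD label, at place 8. From high to low the group means were 7.33 ± 1.07 (SD, n = 5) for SETD2 KD VE822, 6.83 ± 0.51 (SD, n = 6) for WT VE822, 4.93 ± 0.16 (SD, n = 6) for SETD2 KD untreated and 4.85 ± 0.13 (SD, n = 7) for WT untreated. The genotype labels differed by 0.08 ± 0.28 (SE) without treatment, within the spread of their libraries. They differed by 0.49 ± 0.31 (SE) under VE822, where the groups overlapped. Without SETD2 KD VE822 replicate 4, left out after seeing the data, the difference under VE822 was 0.97 ± 0.18 (SE). The 4 remaining SETD2 KD values then ran from 7.58 to 7.97 and the 6 WT values from 6.03 to 7.57. The share of all rows whose labels part in this way without that library was not counted. Without SETD2 KD VE822 replicate 4 and the 4 libraries with muscle transcripts, a choice made after seeing the data, the rise was 2.28 (WT) and 2.87 (SETD2 KD).

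**Figure D1:**
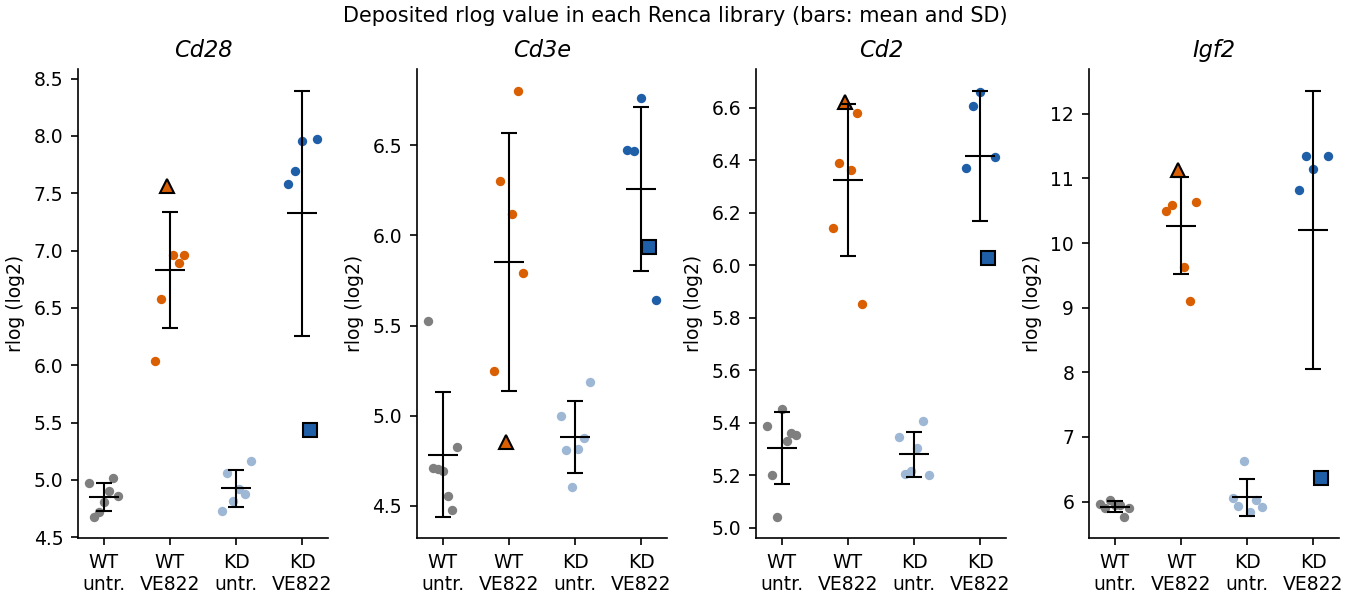
Deposited rlog value (log2) of Cd28, Cd3e, Cd2 and Igf2 in each of 24 Renca libraries by group, with group mean and SD as bars; the triangle is WT VE822 replicate 3 and the square SETD2 KD VE822 replicate 4. Each panel has its own axis, and the triangle is the highest WT VE822 value for Cd28 (7.57) and the lowest for Cd3e (4.85), while the square is the lowest SETD2 KD VE822 value for Cd28 (5.44) and Igf2 (6.37).

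Cd3e and Cd2 were also higher under VE822, by less than Cd28 on this scale. Cd3e differed by 1.07 ± 0.24 (SE, log2) with the WT label and 1.38 ± 0.26 with the SETD2 KD label, and its WT groups overlapped: VE822 values ran from 4.85 to 6.80 and untreated ones from 4.48 to 5.52. Cd2 differed by 1.02 ± 0.11 and 1.14 ± 0.12 (SE, log2), and its VE822 libraries (5.85 to 6.66) were all above its untreated ones (5.04 to 5.45). Igf2 had larger differences than these, 4.34 ± 0.53 and 4.14 ± 0.58 (SE, log2). Because treatment separates the libraries of all 4 genes, the comparison below is made within groups and library by library.

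The genes parted most plainly in WT VE822 replicate 3. Cd28 was highest of its group there, 2.71 above the WT untreated mean against an average of 1.83 in the other 5 libraries. Cd3e was lowest of its group and 0.07 above its untreated mean, against 1.27 in the others. Trac, the constant chain of the alpha-beta T cell receptor, was 0.09 above its untreated mean, against 0.91 in the others. Igf2 was highest of its group, 5.21 above its untreated mean against 4.17 in the others. Cd2 stood with Cd28 here, 1.32 above its untreated mean and highest of its group.

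SETD2 KD VE822 replicate 4 parted them the other way. Cd28 was 0.51 above the SETD2 KD untreated mean there, against an average of 2.87 in the other 4 libraries, which is 17.8% of that average on the log2 scale. Igf2 was 0.30 above its untreated mean against 5.10, or 5.92% of that average. Cd3e was 1.06 above its untreated mean against 1.46 in the others, or 72.6%, and Trac was 1.03 above against 1.23, or 84.3%. Cd2 lay between them, 0.75 above its untreated mean against 1.23, or 60.7%. In this library the T cell receptor genes thus kept more of their difference than Cd28, and Setd2 was at 9.96, within the range of the VE822 libraries and below all untreated ones.

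Over the other 9 libraries under VE822 the genes did not follow each other closely. WT VE822 replicate 5 had the largest Cd3e difference with its label (2.02) and the smallest Igf2 difference (3.18), with Cd28 at 2.04. WT VE822 replicate 1 had the smallest Cd28 difference of its label (1.18) with Igf2 at 4.58 and Cd3e at 0.47. SETD2 KD VE822 replicate 5 had the largest Cd28 difference of all (3.04) and the smallest Cd3e difference of its label (0.76). Muscle genes were high in WT VE822 replicate 1, and their part in its low Cd28 value was not tested.

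**Figure D2:**
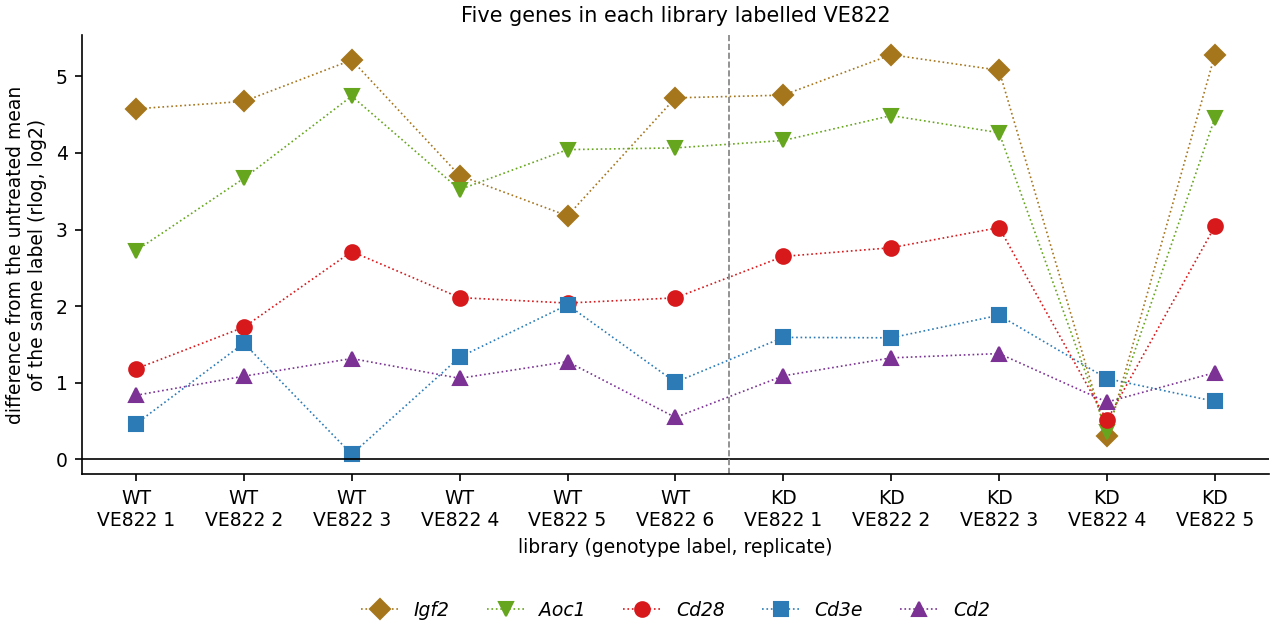
Difference of Igf2, Aoc1, Cd28, Cd3e and Cd2 from the untreated mean of the same label (rlog, log2) in each of 11 libraries labelled VE822; the dotted lines only help the eye. Cd28, Igf2 and Aoc1 drop together in SETD2 KD VE822 replicate 4 (0.51, 0.30 and 0.36) and are all high in WT VE822 replicate 3 (2.71, 5.21 and 4.74), where Cd3e is at 0.07.

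Of 26 genes listed as T cell identity, 25 were tested, Lef1 being too low, and 1 of the tested genes had an untreated mean under 3. That gene passed the filter through higher values under VE822, so its rise with both labels was favoured in advance. With the WT label 21 rose and 1 fell under VE822, where 34.7% of all rows were called (17.2% rose and 17.5% fell), and the median difference was 0.63 against 0.011 over all rows. With the SETD2 KD label 20 rose and none fell, where 22.2% of all rows were called (10.6% rose and 11.6% fell), and the median was 0.86 against 0.0052. These counts include Cd3e and Cd2, whose values were known when Cd28 was chosen, so their part in the counts is a description and no test. Examples are Cd8a, a coreceptor of cytotoxic T cells, which rose by 0.93 ± 0.29 (SE, limma adjusted p = 0.01527) and 1.76 ± 0.32 (0.0003213), and the kinase Lck, which rose by 0.52 ± 0.08 (5.369e-05) and 0.41 ± 0.09 (0.002296). The gene that fell with the WT label was Themis, a T cell selection protein, at -0.32 ± 0.12 (SE, adjusted p = 0.0374). Without the 5 libraries named above, 15 T cell genes rose with the WT label and 20 with the SETD2 KD label. The share of all rows that rose in that smaller fit is not given here, so these 2 counts stand without a background.

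In WT VE822 replicate 3, where Cd28 was highest of its group, 20 of the 25 T cell genes were below all 5 other libraries of the group and 21 lay within the range of the WT untreated libraries. Over all rows 19.4% were below the other 5, and 6804 of 15916 lay within the WT untreated range. The 20 and the 21 include Cd3e, whose values were known beforehand. Above the other 5 were 2 T cell genes, Cd2 and Themis, against 23.4% of all rows. In SETD2 KD VE822 replicate 4, where Cd28 was lowest of its group, 22 of the 25 T cell genes were above every SETD2 KD untreated library, against 33.8% of all rows, and so was Cd28 (5.44 against at most 5.16). Below the other 4 libraries were 3 T cell genes, against 35.2% of all rows, and Cd28 was below them too. In a whole tumour, fewer cells of a type and less RNA per cell cannot be told apart, so these values do not say which cells held the Cd28 transcript.

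**Figure D3:**
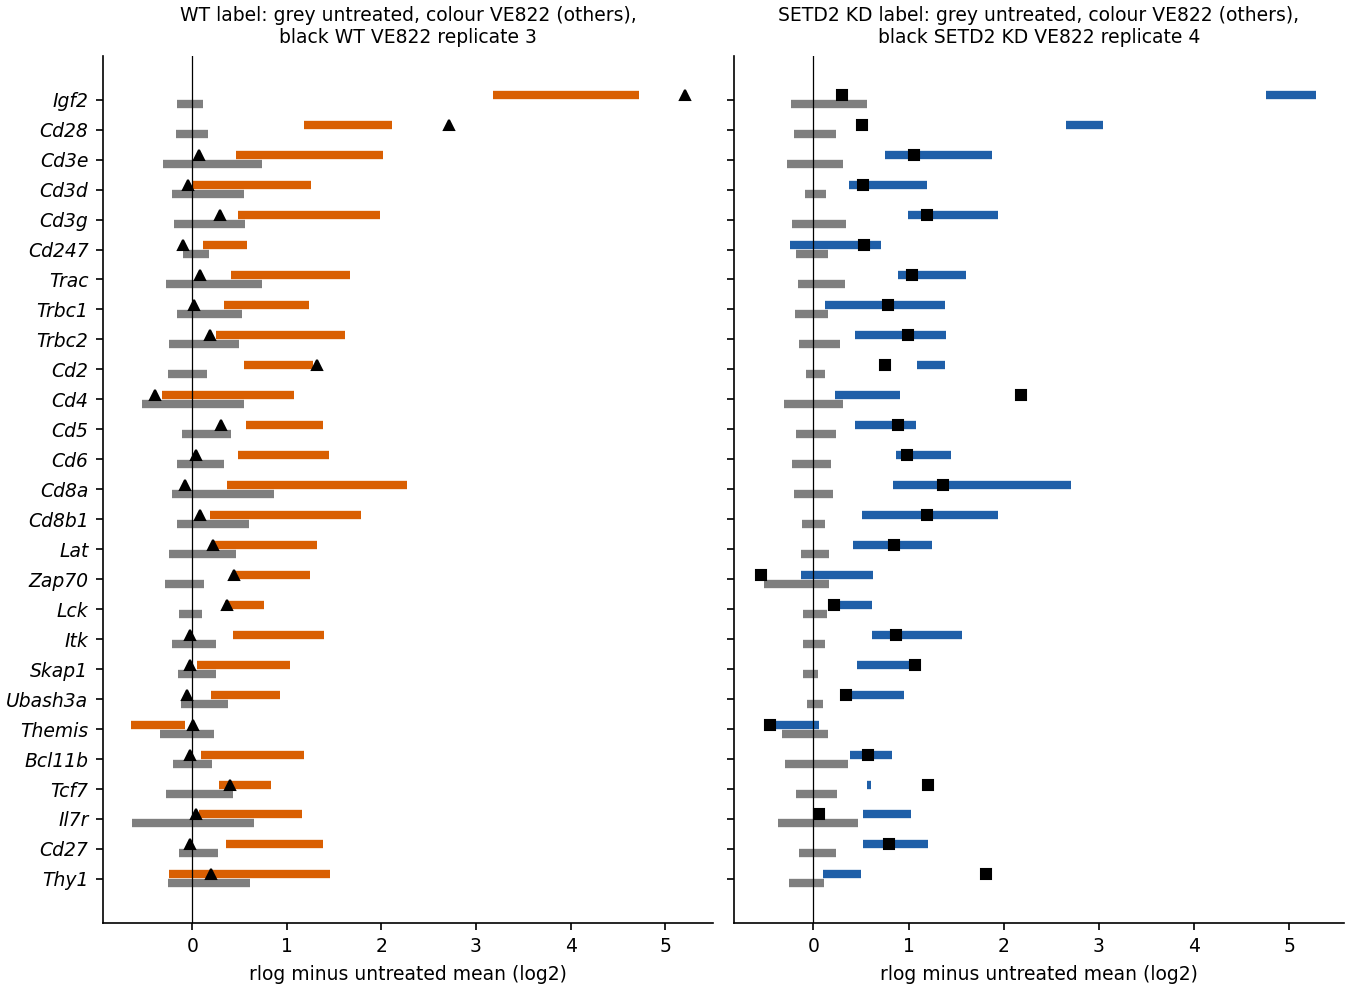
Rlog minus the untreated mean of the same label (log2) for Igf2, Cd28 and the 25 tested T cell genes; grey bars span the untreated libraries, coloured bars the other VE822 libraries, and black marks show WT VE822 replicate 3 (left) and SETD2 KD VE822 replicate 4 (right). On the left the marks of 21 of 25 T cell genes lie within the grey range (6804 of 15916 over all rows) while Cd28 is at 2.71. On the right 22 of 25 lie above the grey range (33.8% of all rows), as Cd28 does at 0.51. There Cd28 lies far below its coloured range.

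The other 4 receptors of the CD28 family rose with both labels. Ctla4 rose by 1.01 ± 0.19 (SE, log2, limma adjusted p = 0.0002006) with the WT label and 0.89 ± 0.20 (0.002558) with the SETD2 KD label. Icos rose by 0.95 ± 0.16 (8.711e-05) and 1.03 ± 0.18 (0.0001817). Pdcd1 rose by 1.04 ± 0.30 (0.009021) and 1.39 ± 0.32 (0.003126), and Btla by 0.52 ± 0.13 (0.003528) and 0.57 ± 0.14 (0.005246). No difference between the labels passed the test for any of them, with adjusted p of the interaction from 0.8223 to 0.9572.

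These receptors differed from Cd28 in WT VE822 replicate 3, where Cd28 was highest of its group. There all 4 were below the other 5 libraries of their group and within the WT untreated range, with Ctla4 at 3.98 and Icos at 4.85. Of all rows 19.4% were below the other 5, and 6804 of 15916 lay within that range. In SETD2 KD VE822 replicate 4 all 4 were above every SETD2 KD untreated library, as Cd28 was, against 33.8% of all rows. Ctla4 (4.16) and Pdcd1 (5.28) were lowest of their group, also as Cd28 was, against 35.2% of all rows. Of the average difference of the other 4 libraries Pdcd1 kept 24.1%, Ctla4 34.1%, Icos 65.8% and Btla 149%, beside 17.8% for Cd28. Likeness to Cd28 within groups, the Pearson r of a gene's deviations from its 4 group means with those of Cd28, was 0.32 for Pdcd1, 0.19 for Ctla4, 0.09 for Icos and -0.20 for Btla over 24 libraries. Without SETD2 KD VE822 replicate 4 it lay between -0.29 and -0.05 for the 4.

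Not all ligands of the family rose. Of 8 listed, 7 were tested, Vtcn1 being too low, and 5 rose with the WT label and 2 with the SETD2 KD label, where 17.2% and 10.6% of all rows rose. Cd80 and Cd86, the ligands of CD28 itself, rose with the WT label by 0.44 ± 0.12 (SE, limma adjusted p = 0.006184) and 0.39 ± 0.11 (0.007647). With the SETD2 KD label they differed by 0.35 ± 0.13 (0.05599) and 0.30 ± 0.12 (0.0746) and did not pass. Icosl, the ligand of ICOS, differed by 0.55 ± 0.15 (0.005396) and 0.43 ± 0.16 (0.05673). No interaction of treatment and label passed the test for these 3 (adjusted p from 0.884 to 0.8987). With the SETD2 KD label these calls lay near the threshold. Cd80 passed without replicate 1 or 3 of WT untreated or replicate 4 of WT VE822, which are not in that comparison. Its difference stayed at 0.35, and its SE went from 0.131 to 0.121, 0.112 and 0.127. It also passed with library weights (0.36) and with only the groups compared (0.35). Cd86 passed without SETD2 KD VE822 replicate 1 (0.35). Icosl passed without replicate 6 of WT VE822 (0.43, unchanged) or replicate 6 of SETD2 KD untreated (0.47). It also passed without replicate 1 or 3 of SETD2 KD VE822 (0.51 each).

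Cd276, which encodes B7-H3, rose with both labels, by 0.77 ± 0.09 (SE, limma adjusted p = 7.719e-07) and 0.70 ± 0.10 (1.599e-05). Pdcd1lg2, which encodes the PD-1 ligand PD-L2, rose by 0.43 ± 0.14 (0.02505) and 0.67 ± 0.16 (0.003236), and its WT call was lost when replicate 3 of WT untreated (0.34) or replicate 5 of WT VE822 (0.31) was left out. Cd274, which encodes PD-L1, differed by -0.05 ± 0.11 (0.7673) and 0.29 ± 0.12 (0.07528), and passed with the SETD2 KD label without replicate 4 of its untreated group (0.35) or replicate 5 of its VE822 group (0.37). Tnfrsf14, the ligand of BTLA, differed by -0.03 ± 0.11 (0.8761) and 0.28 ± 0.12 (0.1085). In SETD2 KD VE822 replicate 4 none of the 7 was below the other 4 libraries, against 35.2% of all rows, and Cd86 had its highest value of all libraries (8.96).

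Among 24 genes of signalling below CD28, all tested, 9 rose and 1 fell with the WT label and 8 rose and none fell with the SETD2 KD label, with medians of 0.11 and 0.15; of all rows 17.2% rose and 17.5% fell with the WT label and 10.6% and 11.6% with the SETD2 KD label. The kinase Tec, which binds CD28, and the kinase Akt1 had the highest likeness to Cd28, 0.81 and 0.50 over 24 libraries and 0.34 and 0.13 without SETD2 KD VE822 replicate 4, and neither rose: Tec differed by 0.12 ± 0.09 (SE, limma adjusted p = 0.3426) and 0.10 ± 0.10 (0.5381). Pik3r1, the regulatory subunit of the lipid kinase that CD28 recruits, and the kinase Fyn had the lowest, -0.70 and -0.58, and -0.31 and -0.15 without that library.

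Among genes that respond to CD28 signalling, Il2 and Cd40lg were too low to test, with mean rlog of -0.16 and -1.04, and Ifng had a mean of 2.23. Of 10 tested genes 2 rose and 1 fell with each label, where 34.7% (WT) and 22.2% (SETD2 KD) of all rows were called. Tnfrsf4, which encodes the costimulatory receptor OX40, rose by 0.60 ± 0.13 (SE, limma adjusted p = 0.000762) and 0.53 ± 0.14 (0.00733). Myc fell by 0.55 with the WT label (SE 0.09, 9.485e-05) and by 0.32 with the SETD2 KD label (SE 0.10, 0.02847). Bcl2l1, which encodes the survival protein BCL-XL, differed by -0.04 ± 0.08 (0.721) and 0.09 ± 0.08 (0.4864).

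Lists of other immune cells were examined because some can hold CD28 or its ligands. Their counts stand beside 17.2% of all rows that rose and 17.5% that fell with the WT label, and 10.6% and 11.6% with the SETD2 KD label. All 8 regulatory T cell genes rose with both labels, Foxp3 by 0.72 ± 0.15 (SE, limma adjusted p = 0.0005943) and 0.68 ± 0.16 (0.00327). In WT VE822 replicate 3 all 8 lay within the WT untreated range, as did 6804 of all 15916 rows. Of 12 listed cytotoxic and NK cell genes, Gzmk and Eomes were too low to test. Of the 10 tested, 9 rose with the WT label and 10 with the SETD2 KD label. An untreated mean was under 3 in 2 of them. These passed the filter through higher values in other groups, so their rise was favoured in advance. In SETD2 KD VE822 replicate 4 all 10 were above every SETD2 KD untreated library, against 33.8% of all rows. Dendritic cell genes rose in 6 and 5 of 9, among them the migration receptor Ccr7 by 1.17 ± 0.16 (8.102e-06) and 0.66 ± 0.18 (0.00828). An untreated mean was under 3 in 1 of the 9, to which the same limit applies. No macrophage gene rose and 3 of 9 fell with each label, and no neutrophil gene of 6 was called.

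Plasma cells can carry CD28, and their defining genes Jchain, Mzb1, Tnfrsf17 and Derl3 were too low to test. Of the 4 plasma cell genes tested, Sdc1 fell with both labels and the other 3 did not pass. The B cell gene Ms4a1 was near the bottom of the scale, with a mean rlog of -1.37, and of 4 tested B cell genes 2 rose with the WT label, while with the SETD2 KD label none rose and Cd79a fell by 0.82 (SE 0.28, limma adjusted p = 0.03639). Of 4 tested mast cell genes 2 rose and none fell with each label, where 17.2% (WT) and 10.6% (SETD2 KD) of all rows rose. The 2 were tryptase genes: Tpsab1 rose by 3.20 ± 0.43 (SE, limma adjusted p = 5.388e-06) and 3.03 ± 0.46 (5.553e-05), and Tpsb2 by 1.13 ± 0.27 (0.002336) and 1.65 ± 0.29 (0.0002922). Kit and Hdc, also tested, did not pass with either label. The other defining mast cell genes Cpa3, Mcpt4, Cma1, Ms4a2 and Fcer1a had mean rlog below 3. In SETD2 KD VE822 replicate 4 Tpsab1 kept 2.61% of the average difference of the other 4 libraries, less than Cd28.

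Of 12 genes of renal epithelial identity, 2 rose and 8 fell with the WT label (17.2% and 17.5% of all rows) and 3 rose and 8 fell with the SETD2 KD label (10.6% and 11.6%). Wt1, a kidney transcription factor, rose by 1.52 ± 0.34 (SE, limma adjusted p = 0.001574) and 1.04 ± 0.38 (0.04835), and had a likeness to Cd28 of 0.69, which was -0.04 without SETD2 KD VE822 replicate 4. Cdh1, which encodes E-cadherin, had a likeness of 0.70 (-0.12 without that library) and fell, by 0.38 (SE 0.13, 0.03021) and 0.67 (SE 0.15, 0.001922). Pou3f3 fell by 2.08 (SE 0.27, 3.227e-06) and 1.07 (SE 0.29, 0.009294), with a likeness of -0.76 (-0.06 without that library). Of 9 skeletal muscle genes 2 rose with the WT label and 1 with the SETD2 KD label, shares near the 17.2% and 10.6% of all rows. Myom2, a sarcomere protein, was called with both, at 2.72 ± 0.32 (1.319e-06) and 2.56 ± 0.35 (1.879e-05), and its likeness to Cd28 was 0.76, and -0.0041 without SETD2 KD VE822 replicate 4.

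All 15915 other rows were ranked by likeness to Cd28 over the 24 libraries. These points share their libraries, and SETD2 KD VE822 replicate 4 supplied 58.7% of Cd28's sum of squares within groups, so values are given with and without it. Igf2 stood in place 132 with an r of 0.80, and without this library in place 6459 with an r of 0.09. Cd2 stood in place 1478 (0.57) and then 2324 (0.36), and Cd3e in place 6734 (0.10) and then 9714 (-0.10). Spearman's rho was 0.35 for Igf2, and -0.15 without the library. The likeness of Cd28 to Igf2 within groups thus rested largely on SETD2 KD VE822 replicate 4. What remained without it depended on the other libraries: r was 0.40 when the 4 libraries with muscle transcripts were left out as well. It was 0.25 when WT VE822 replicate 1 was left out as well.

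T cell genes as a list had a median likeness to Cd28 near that of all rows. It was 0.012 over 24 libraries and -0.064 without SETD2 KD VE822 replicate 4, against -0.0034 and 0.00066 over all rows. The range over 24 libraries was from -0.57 for Thy1 (-0.03 without that library) to 0.57 for Cd2, and 1 of the 25, Cd2, stood among the first 1591 rows. Without that library the 1 among them was Themis, with an r of 0.59.

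**Figure D4:**
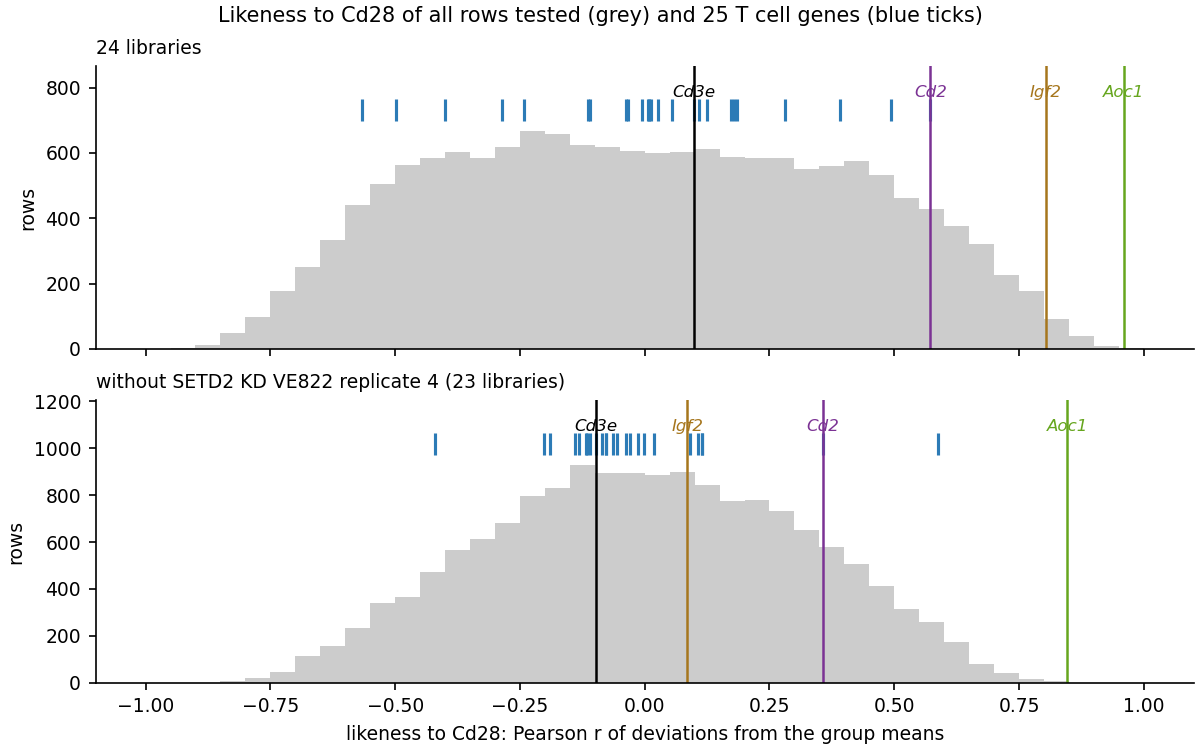
Histogram of the likeness to Cd28 (Pearson r of deviations from the group means) over all tested rows in grey, with the 25 T cell genes as blue ticks and lines for Cd3e, Cd2, Igf2 and Aoc1, over 24 libraries (top) and the 23 without SETD2 KD VE822 replicate 4 (bottom). Aoc1 stays at the right end (0.96 and 0.85) while Igf2 moves from 0.80 to 0.09.

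The gene most like Cd28 was Aoc1, which encodes diamine oxidase, an enzyme that breaks down histamine and polyamines. Its rlog was 4.98 to 5.12 in WT untreated and 4.93 to 5.12 in SETD2 KD untreated libraries. Under VE822 it was 7.76, 8.70, 9.78, 8.56, 9.08 and 9.10 with the WT label. With the SETD2 KD label it was 9.21, 9.54, 9.31, 5.41 and 9.50. Like Cd28, it was highest of its group in WT VE822 replicate 3 and lowest of its group in WT VE822 replicate 1 and SETD2 KD VE822 replicate 4. The likeness was 0.96, and 0.85 without SETD2 KD VE822 replicate 4. Without the 2 libraries farthest from the group mean in Cd28, that library and WT VE822 replicate 1, it was 0.69, and then Igf2 was at 0.25, Cd2 at 0.26 and Cd3e at -0.47.

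The next most alike were D7Ertd443e (0.95), Esrra (0.93), a nuclear receptor of mitochondrial genes, Tceal7 (0.93), Fam136a (0.92), Idh2 (0.92), a mitochondrial isocitrate dehydrogenase, and Kif1a (0.92), a kinesin motor. Tceal9, Cycs (cytochrome c), Gpr143 (a pigment cell receptor), Cops7a (a COP9 signalosome subunit) and Neil2 (a DNA repair glycosylase) completed the first 12, at 0.90 to 0.91. Of these, Aoc1, D7Ertd443e, Tceal7 and Cops7a stayed among the 12 most alike without SETD2 KD VE822 replicate 4, with r of 0.85, 0.85, 0.82 and 0.80, and 17 of the first 100 stayed among the first 100. The other 8 moved to between 0.56 (Neil2) and 0.76 (Idh2). None of the 12 is on the T cell identity list, but that list holds only 25 of the 15916 rows tested, so its absence from 12 rows says little.

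Several of these genes also rose under VE822, where 17.2% (WT) and 10.6% (SETD2 KD) of all rows rose. The ranking is not independent of that rise. SETD2 KD VE822 replicate 4 supplied 58.7% of Cd28's sum of squares within groups, and its Cd28 value (5.44) was near untreated ones. Gpr143 was at 4.95 there, against a SETD2 KD untreated mean of 4.98, and Tceal7 at 4.60 against 4.30. Of the 12, all but Aoc1, Tceal7, Kif1a and Gpr143 were below every SETD2 KD untreated library there. Neil2 was at 7.47 against at least 8.16, and Fam136a at 9.53 against at least 10.06. Likeness over 24 libraries therefore favours genes that were low in that library beside the rest of its group. Genes that rise under VE822 and were near untreated levels there are among them. Tceal7 rose by 2.56 ± 0.40 (SE, limma adjusted p = 4.25e-05) and 2.72 ± 0.44 (0.0001094). D7Ertd443e rose by 1.35 ± 0.20 (1.592e-05) and 1.09 ± 0.21 (0.0007655), and Gpr143 by 1.69 ± 0.27 (5.363e-05) and 1.84 ± 0.30 (0.0001094). Fam136a rose with the WT label by 0.41 ± 0.13 (0.01853) and differed by 0.22 ± 0.14 (0.298) with the other. At the opposite end were Rdh10, a retinol dehydrogenase (-0.92), Rnf146, a ubiquitin ligase (-0.90), Heph, a ferroxidase (-0.90), Nedd9, an adhesion scaffold (-0.90), and Pls3, an actin bundler (-0.89). Without SETD2 KD VE822 replicate 4 these 5 lay between -0.71 and -0.58. Heph fell by 1.02 (SE 0.14, 8.102e-06) and 0.78 (SE 0.15, 0.0007224). Of the 100 rows most like Cd28 over 24 libraries, 22 lie on chromosome 6, Aoc1 among them. Chromosome 6 holds 4.96% of all rows tested. Only 17 of the 100 stayed among the first 100 without SETD2 KD VE822 replicate 4, and the chromosomes were not counted without it.

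Around Cd28 the change was not shared by the genes before it. GENCODE vM21 gives Cd28 3 transcripts: a coding one at 60746358 to 60773359 with 4 exons, a retained-intron form, and a noncoding one that starts 29558 bases further upstream, and a value per gene cannot tell them apart. No other row overlaps it. Within 500 kb either side 29 rows are in the table, Cd28 included, and 9 were tested. Ctla4 starts 170.2 kb and Icos 261.1 kb downstream of the Cd28 start, and both rose, as given above. On the other side Nbeal1 fell with the WT label by 0.32 (SE 0.10, limma adjusted p = 0.01645) and differed by 0.02 ± 0.11 (0.924) with the SETD2 KD label.

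Raph1, Cyp20a1, Abi2 and the pseudogenes Eif4a-ps4 and Rpl18-ps1 were not called with either label. Raph1, the nearest coding gene upstream, differed by -0.19 ± 0.09 (SE, limma adjusted p = 0.1255) and 0.01 ± 0.10 (0.9611). Eif4a-ps4, whose start is nearest to that of Cd28, differed by -0.04 ± 0.06 (0.6583) and -0.08 ± 0.06 (0.4203).

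**Figure D5:**
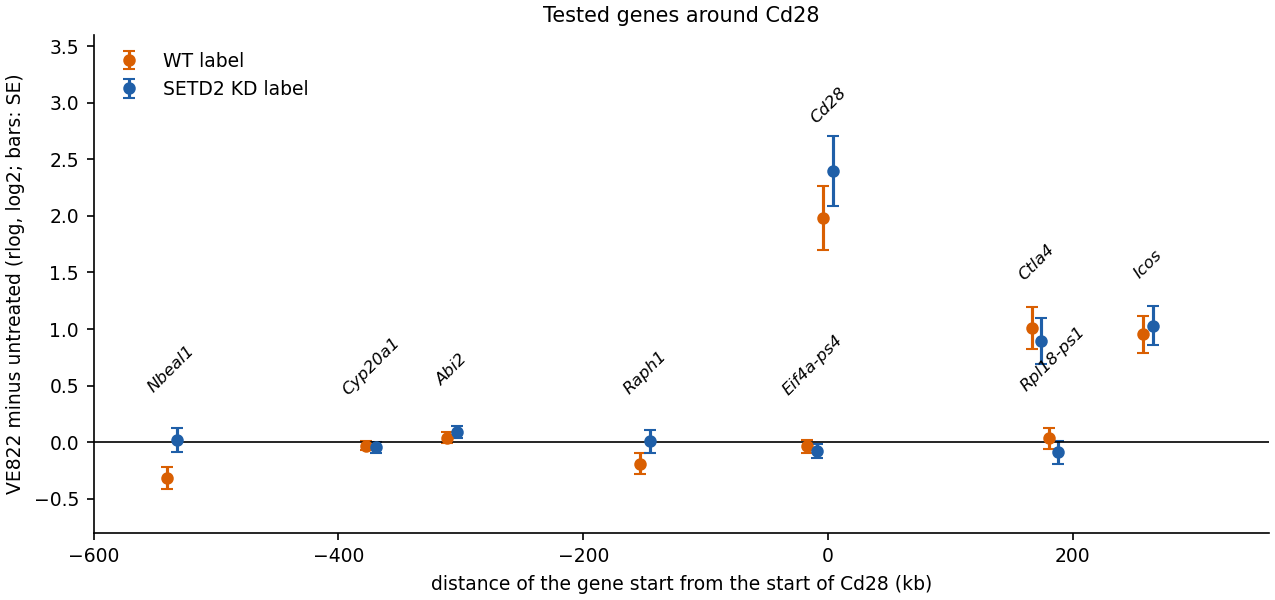
VE822 minus untreated (rlog, log2) with its SE for the 9 tested rows around Cd28, against the distance of each gene's start from that of Cd28 in kb, in orange for the WT label and blue for the SETD2 KD label. Cd28 (1.98 and 2.40), Ctla4 (1.01 and 0.89) and Icos (0.95 and 1.03) lie above 0, and the 6 other rows lie between -0.32 and 0.09.

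In 786-O cells, a culture without T cells, CD28 was at the lowest value of the table, 2.47 (variance-stabilised, log2), in 3 of 4 libraries and at 3.11 in CHK1 inhibitor replicate 1. The difference was 0.32 ± 0.28 (SE, limma adjusted p = 0.4519), where 13.2% of the 29353 rows that vary were called. CD3E, CD2 and CTLA4 were at the lowest value in all 4 libraries, ICOS and CD80 in 3, CD86 in 2 and IGF2 in 1. IGF2 was at 2.47 and 3.06 without treatment and at 3.37 and 3.12 with the inhibitor, a difference of 0.48 ± 0.29 (0.3909). The human values bear on another inhibitor, species and setting and were compared with none of the mouse values.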

How the data were processed

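RNA was measured in 24 Renca tumour libraries and 4 libraries of 786-O cells. The authors deposited rlog values (log2) for each Ensembl gene in mouse and variance-stabilised log2 values for each symbol in human. Per the submitters' processing notes the tools were FastQC, TopHat, HTSeq and DESeq2, with builds hg38 and GRCm38. Their versions, the annotation and the strandedness: not given in the sources used here. Depth is unknown for the mouse libraries, so its effect on precision could not be given.

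Symbols and coordinates came from GENCODE vM21, which matched 98.2% of 46078 mouse rows; 16906 rows were 0 throughout. The 15916 rows whose mean rlog reached 3 were fitted with limma 3.58.1 in R 4.3.3: 4 group means, empirical Bayes with a variance trend, Benjamini-Hochberg adjustment over all rows, threshold 0.05. Human rows that vary (29353) were fitted the same way without a block. Their replicate numbers come from the titles, which do not say what they mark, and deviations of same-numbered libraries correlated at 0.158. Likeness to a gene was the Pearson r of deviations from group means, with no test. The fit was tested on simulated data. Alternatives were other filters and normalisations, removal of chromosome medians, library weights, fits of the compared groups only and leaving out libraries.

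Cd28 and all gene lists were chosen with earlier results of these data known. Named are Cd28, Cd3e, Cd2 and Igf2, all measured CD28 family receptors and ligands, up to 4 genes of each other list (the 2 highest and 2 lowest in likeness), the 12 most and 5 least alike rows, the tested rows within 500 kb, Setd2, and 8 human genes. Trac, Lck, Cd8a, Foxp3, Myc, the genes below the filter, Pax8 and Cdh16 were named after their values were seen.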

Additional observations from a re-analysis of the deposited data

Results flagged for a closer look

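In 22 genes and 4 groups, 88 sets of libraries were screened for 1 library far from the rest (a gap beyond Dixon's critical value), and 7 stood out; chance gives about 1 in 20. For Cd28, Cd3e and Igf2, whose values by library led to their choice, the gaps are a description and no test. SETD2 KD VE822 replicate 4 had 3 of them: the lowest Cd28 (5.44, the next 7.58), the lowest Igf2 (6.37, the next 10.82) and the highest Cd86 (8.96, the next 8.41). WT untreated replicate 1 had 2, the highest Cd3e (5.52, the next 4.83) and the highest Pdcd1 (5.83, the next 4.97). Igf2 was highest in SETD2 KD untreated replicate 3 (6.63, the next 6.06), and Cd80 was lowest in SETD2 KD untreated replicate 1 (5.95, the next 6.32). No cause was tested for any of these.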

How the results depend on the processing

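The differences of Cd28, Cd3e, Cd2 and Igf2 under VE822 kept their direction under each alternative run. With a mean rlog of at least 5 only 11 T cell genes were tested, and 7 (WT) and 6 (SETD2 KD) rose. The share of all rows that rose under that filter is not given here. Likeness to Cd28 without each library in turn ran from 0.85 to 0.97 for Aoc1, 0.086 to 0.88 for Igf2, 0.36 to 0.74 for Cd2 and -0.10 to 0.34 for Cd3e. Spearman's rho was 0.79, 0.35 and 0.35 for Aoc1, Igf2 and Cd2, and 0.50, -0.15 and 0.22 without SETD2 KD VE822 replicate 4. Without the 5 libraries doubted, r was 0.70, 0.40, 0.36 and -0.43 for Aoc1, Igf2, Cd2 and Cd3e, and without the 2 farthest in Cd28 0.69, 0.25, 0.26 and -0.47; these choices were made after seeing the data. Removing chromosome medians gave Cd80 (0.43), Cd86 (0.37), Icosl (0.61) and Cd274 (0.33) a call with the SETD2 KD label, and quantile normalisation took that of Cd80 (0.28) and Pdcd1lg2 (0.25) with the WT label. Between the labels without treatment, quantile normalisation and no variance trend gave 1 gene, only the groups compared 3, library weights 11, the fit without the 5 libraries 2, and leaving out 1 library 0 to 3. Between the labels under VE822, 2 genes passed; no filter gave 4, quantile normalisation 1, chromosome medians 6, only the groups compared 0, and leaving out 1 library 2 to 46. In 786-O, 3878 genes passed, and 5582 with a replicate block that pairs same-numbered libraries. A mean of at least 5 gave 6226, no variance trend 0, and leaving out 1 library 0 to 4571. The cause of these shifts was not tested beyond what each alternative removes. Mouse depth is unknown, so a gene below the filter cannot be called absent.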
